A study of Mus musculus with 3 samples.

Results

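The histone genes of mouse granulocyte progenitors are described here: every symbol of the deposited tables that begins with Hist1h, Hist2h, Hist3h or Hist4h, taken as the 68 replication-dependent genes, and 9 variant genes chosen by name (H2afx, H2afz, H2afv, H2afy, H2afy2, H3f3a, H3f3b, H1f0 and H1fx). They make 77 of 24421 symbols. RNA came from bone marrow granulocyte progenitors, the precursors of neutrophils, sorted by flow cytometry from female mice and sequenced as 3 libraries, 1 per group. The NTB library came from F1 mice (H-2b/d) without a tumor. The 4T1-TB library came from F1 mice of the same haplotypes that carried an orthotopic graft of 4T1 cells, a mouse mammary carcinoma line. The IRF8-deficient library came from C57BL/6 mice (H-2b) lacking IRF8, a transcription factor that directs monocyte and dendritic cell development, so genotype and strain cannot be told apart in any comparison with it. The number of mice behind a library, the deleted part of Irf8 and the selection of RNA for sequencing were not given in the sources used here. With 1 library per group no difference was tested against a spread between animals. In such bulk samples fewer cells making an RNA and less of it per cell cannot be told apart.

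Most of the DNA-packaging histones are made only while a cell copies its genome. The replication-dependent genes lie in clusters, lack introns and give mRNAs that end in a conserved stem-loop instead of a poly(A) tail. The stem-loop is bound by SLBP, which guides the cut of the transcript, its export, its translation and its decay when replication ends. Variant histones are made outside S phase too, mostly from single genes with introns and polyadenylated mRNAs, and they replace the standard histones at particular sites: H2A.Z (H2afz, H2afv) at promoters, H3.3 (H3f3a, H3f3b) in transcribed chromatin, and macroH2A (H2afy, H2afy2) in silent chromatin. H2A.X (H2afx) is spread through chromatin and is phosphorylated near DNA breaks.

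The stem-loops are shown because the forms found in H4 genes were found in no other replication-dependent class, each as the DNA letters of the transcript strand from GENCODE M21 with the loop of 4 bases in capitals:
Hist1h1c: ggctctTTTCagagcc
Hist4h4: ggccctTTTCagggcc
Hist1h2bb: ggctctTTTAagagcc
Hist2h4: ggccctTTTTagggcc
Hist1h4j: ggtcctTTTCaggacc
H2afx: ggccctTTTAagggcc
The first form stood in 25 genes of all classes but H4. The form of Hist4h4 stood in 6 genes, all H4, and that of Hist1h2bb in 6 genes of H1, H2B and H3. Hist2h4 shared its form with Hist1h4i, and Hist1h4j with Hist1h4b. The conserved letters, GGNNN followed directly by TTNTN and then by ANNNCC with N for any base, were searched on the transcript strand in the annotated bases after the stop codon of every gene with at least 60 such bases. They were found in 44 of the 48 replication-dependent genes that could be searched, 21 to 58 bases after the stop codon, and in 3.09% of 20704 genes overall. Among the 9 variants H2afx alone held them, 46 bases after its stop codon. This gene of the DNA damage response is known to make both a stem-loop mRNA and a polyadenylated one. The poly(A) signal AATAAA lay in the last 40 annotated bases of 14 of the 48 searched replication-dependent genes and of 6 of the 9 variants, against 67.2% of all genes. Both features were annotated together in 11 replication-dependent genes, Hist1h1c, Hist2h4 and Hist4h4 among them.

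The upstream regions of a highly expressed H2B gene and of the H4 gene with the lowest IRF8-deficient to NTB difference show how members differ before their start sites. The windows of 300 bases span the RefSeq gene start in GRCm38.p6, at chr13:21753826-21754125 on the plus strand for Hist1h2bn and at chr6:136804382-136804681 on the minus strand for Hist4h4, both written along the gene's strand with matches on either strand to CCAAT and to the TATA box letters TATAAA in capitals:
Hist1h2bn: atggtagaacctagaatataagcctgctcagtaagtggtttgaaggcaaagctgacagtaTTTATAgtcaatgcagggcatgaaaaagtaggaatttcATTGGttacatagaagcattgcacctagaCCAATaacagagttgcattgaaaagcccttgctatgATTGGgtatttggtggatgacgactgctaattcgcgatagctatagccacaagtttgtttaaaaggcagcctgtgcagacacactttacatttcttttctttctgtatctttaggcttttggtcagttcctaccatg
Hist4h4: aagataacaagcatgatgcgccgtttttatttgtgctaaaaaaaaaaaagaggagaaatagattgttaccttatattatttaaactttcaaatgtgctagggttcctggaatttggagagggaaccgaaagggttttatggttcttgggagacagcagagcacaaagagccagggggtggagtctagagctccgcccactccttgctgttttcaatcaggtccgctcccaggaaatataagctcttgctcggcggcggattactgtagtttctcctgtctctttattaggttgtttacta
CCAAT was found on either strand in the windows of 52 of the 61 replication-dependent genes matched by symbol (85.2%) and in 37.4% of 32851 windows of all genes. It was found for every matched H1, H2A, H2B and H3 gene and for 3 of 12 H4 genes. TATAAA was found in 57.4% of replication-dependent windows and in 13.6% of all. ATTTGCAT, the octamer known from H2B promoters and searched after the other motifs, was found in 7 of 17 H2A and 7 of 16 H2B windows, in none of the H1, H3 and H4 windows and in 1.74% of all. H2A and H2B genes often form pairs that share one upstream region, so some of these windows overlap. The printed Hist1h2bn window overlaps that of Hist1h2ak, an H2A gene on the minus strand. Its 1 TATAAA match reads along the strand of Hist1h2ak, not of Hist1h2bn, and is also counted for Hist1h2ak. Of 8 variant windows 5 held CCAAT, 1 TATAAA and 1 ATTTGCAT. The Hist4h4 window held none of the 3 sets of letters. Nor did those of the H4 genes Hist1h4b and Hist1h4h, both higher in IRF8-deficient than in NTB. Any link between these letters and the levels was not tested.

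Levels are RPKM, the reads of a gene divided by its length and by the size of its library. Reads recovered from the RPKM summed to 39811130, 22030024 and 34075662 for NTB, 4T1-TB and IRF8-deficient, and the library sizes that the deposited values imply were these sums times 1.13, 1.01 and 0.766. The 10 listed markers of granulocyte progenitors were present in all 3 libraries, with Mpo at 6811, 6749 and 4012 RPKM in NTB, 4T1-TB and IRF8-deficient. They summed to 17583, 21027 and 10518 RPKM. Differences here and below are of log2(RPKM + 1), called at a size of 1 or more among genes that reached 1 RPKM in any library. Of all genes compared 1.67% were called higher and 1.35% lower in 4T1-TB against NTB, and 8.78% and 5.73% in IRF8-deficient. Against NTB the median difference of the 10 progenitor markers was 0.39 in 4T1-TB, with none called. In IRF8-deficient it was -0.45, with 8 below 0 and 2 above, 1 of these called higher. Of 10 listed erythroid markers Tfrc, the transferrin receptor that dividing cells also carry, stood at 56.9, 89.6 and 31.4 RPKM, and the other 9, 4 globin genes at 0 among them, were below 1 RPKM in every library. Irf8 stood at 43.8, 8.60 and 13.7 RPKM, and values for the whole gene do not show whether the deleted part was read. Rn45s, the ribosomal RNA precursor, took 1.91%, 6.71% and 14.5% of recovered reads. The 10 listed markers of mature neutrophils, granule proteins such as lactoferrin (Ltf) included, summed to 1364, 1339 and 39019 RPKM. Against NTB 6 of them were called higher in 4T1-TB, with a median of 1.85, and all 10 in IRF8-deficient, with a median of 4.99. The 10 monocyte and dendritic markers, Irf8 among them, summed to 158, 52.2 and 103 RPKM, and against NTB 6 of the 9 compared were called lower in 4T1-TB and 3 in IRF8-deficient, with medians of -1.24 and -0.67. Lymphoid markers summed to 437, 448 and 164 RPKM, of which Nkg7 made 420.4, 435 and 152, and megakaryocyte, mast and eosinophil markers to 22.9, 24.1 and 13.1. These quantities differed between the libraries compared, and their part in the histone values was not tested.

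Replication-dependent histone mRNA was abundant. Its 68 genes summed to 21219, 23648 and 47458 RPKM in NTB, 4T1-TB and IRF8-deficient, and the 9 variants to 1640, 1606 and 2246 RPKM. The IRF8-deficient sum of replication-dependent genes was 2.24 times that of NTB and the variant sum 1.37 times. The ratio of these sums, replication-dependent over variant, needs no scaling between libraries and was 12.9, 14.7 and 21.1 in NTB, 4T1-TB and IRF8-deficient. Replication-dependent genes took 1.22%, 1.21% and 1.85% of recovered reads and variants 0.271%, 0.231% and 0.232%. As a share of reads the replication-dependent genes were thus higher in IRF8-deficient, and the variants lower, than in NTB. The total of reads includes Rn45s, whose share was given above and was highest in IRF8-deficient. A larger Rn45s share lowers all other shares, and its part in the lower variant share was not tested.

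**Figure D1:**
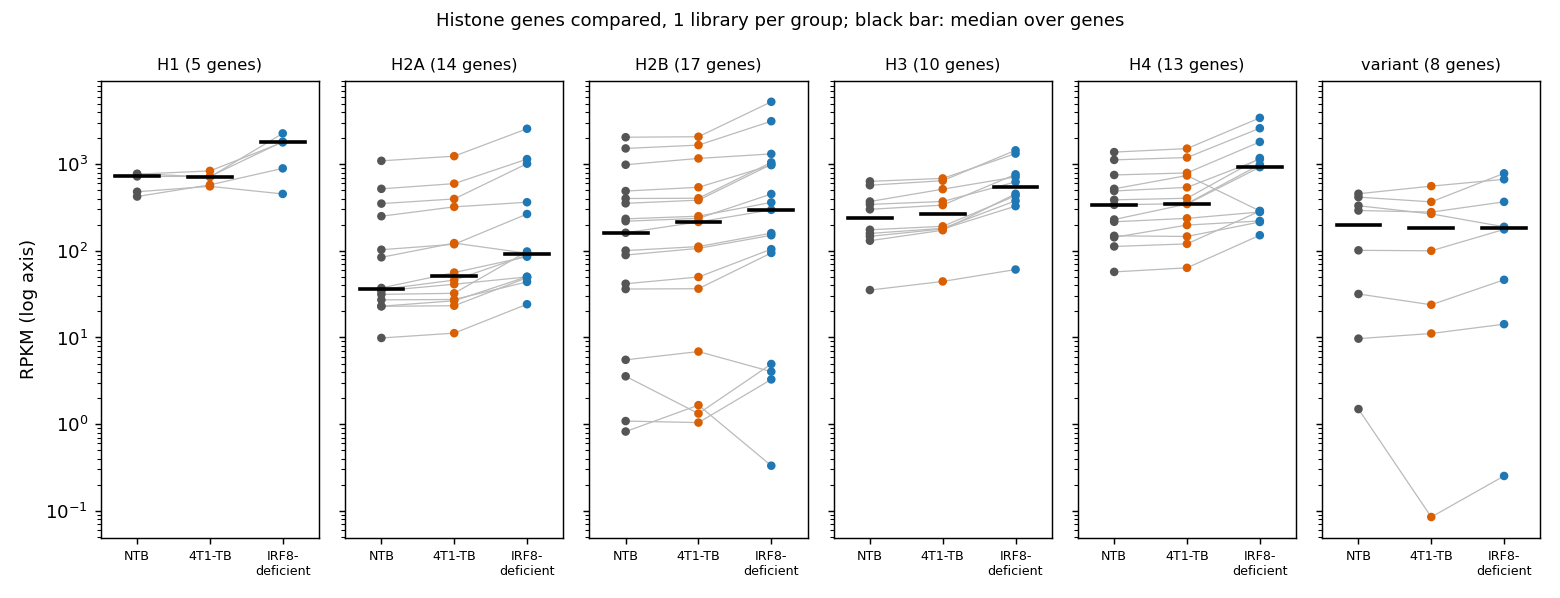
RPKM on a log axis of the 67 histone genes compared in the NTB, 4T1-TB and IRF8-deficient libraries, 1 panel per class; grey lines join 1 gene across libraries and black bars are medians over genes. Hist4h4, from 519 RPKM in NTB to 288 in IRF8-deficient, is the H4 gene whose line descends to the right, and H1fx is the lowest point of the variant panel.

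The 5 classes held nearly constant shares of the replication-dependent sum. H2B made 31.5%, 30.6% and 30.2% of it in NTB, 4T1-TB and IRF8-deficient. H4 made 27.7%, 28.1% and 28.4%. H1, H3 and H2A each lay between 12.3% and 15.2% in every library. The order of the classes (H2B, H4, H1, H3, H2A) was the same in all 3 libraries. A few genes carried much of the total: Hist1h2bn, Hist1h4k and Hist1h2bl together made 23.3%, 22.2% and 24.8% of it.

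For single genes the difference of log2(RPKM + 1) was taken, a scale that understates differences of low genes. The 10658 genes that reached 1 RPKM in any library were compared, and calls required a difference of 1, which is 2-fold, or more. Of the replication-dependent genes 59 were compared and of the variants 8. The comparisons of 4T1-TB and of IRF8-deficient with NTB share the NTB library, and those with IRF8-deficient share that one.

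Between 4T1-TB and NTB the replication-dependent genes differed little. None of 59 was called in either direction, while 1.67% of all genes compared were called higher and 1.35% lower. The median difference was 0.15, between a lowest of -0.97 (Hist2h2be) and a highest of 0.59 (Hist2h4), and the median of all genes was 0.01. The difference was above 0 in 54 genes, but in 39 once the 20 highest genes were left out of the scaling and in 29 with scaling by summed recovered reads, so its sign depends on scaling. Of the variants 1 was called, H1fx, the linker histone H1.10, with 71, 2 and 7 reads in NTB, 4T1-TB and IRF8-deficient. Its 4T1-TB to NTB ratio was 0.0568, with a 95% exact binomial interval of 0.00675 to 0.213 that covers counting error only. The variant median was -0.12.

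Between IRF8-deficient and NTB 38 of 59 replication-dependent genes were called higher and none lower, beside 8.78% of all genes called higher and 5.73% lower. Their median difference was 1.15 against -0.02 for all genes. No variant of 8 was called in either direction, and the variant median was 0.52. Scaling by summed recovered reads shifted the all-gene median by -0.49, and 5 replication-dependent genes were then called, 4 higher (Hist2h4, Hist1h3b, Hist1h2af and Hist1h4f) and Hist4h4, not called as deposited, lower. Under that scaling the replication-dependent median was 0.63 and lay 1.15 above that of all genes, while the variant median was -0.01 and lay 0.51 above it. The calls over all genes split 936 higher and 611 lower as deposited, 708 and 894 when rescaled without the 20 highest genes, and 448 and 1993 under summed reads. How many histone genes pass 2-fold thus depends on the scaling, while the distance of their median from that of all genes lay between 1.15 and 1.18 in every scaling.

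**Figure D2:**
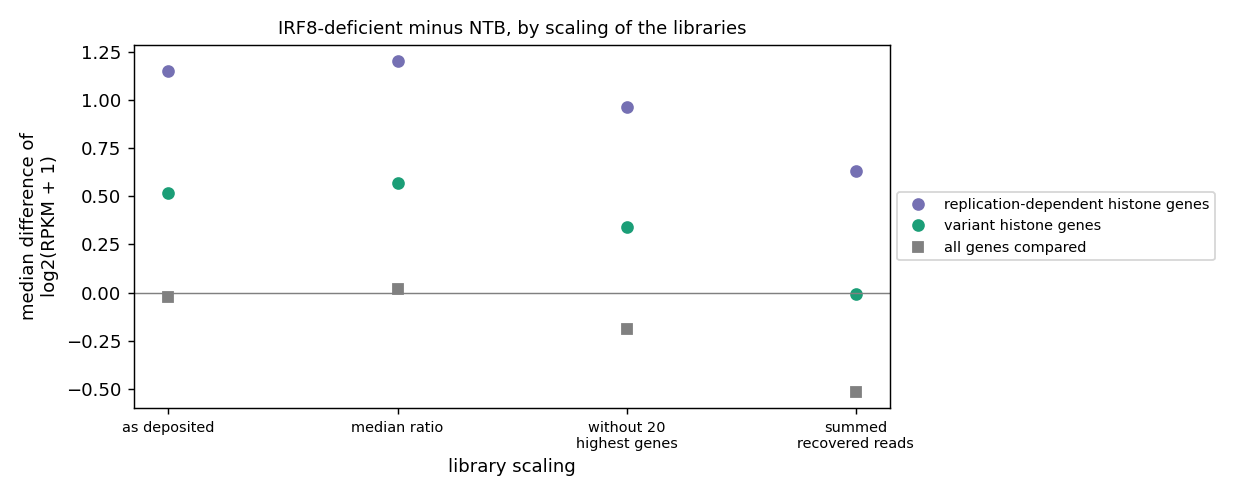
Median difference of log2(RPKM + 1), IRF8-deficient minus NTB, for the 59 replication-dependent genes, the 8 variants and all 10658 genes compared under 4 scalings of the libraries. All 3 medians are lower under summed recovered reads, where the variant median is -0.01, and the replication-dependent median stays 1.15 above that of all genes.

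Between IRF8-deficient and 4T1-TB 30 replication-dependent genes were called higher and 1, Hist4h4, lower, beside 8.83% and 7.07% of all genes. The median difference was 1.04 against -0.00 for all genes. Of the variants H3f3a was called higher and none lower. Under summed reads 6 replication-dependent genes (Hist1h1c, Hist1h2af, Hist1h4c, Hist1h4f, Hist2h2be and Hist2h4) were called higher and 2 lower, Hist4h4 and Hist3h2ba, the latter not called as deposited, beside 488 of all genes higher and 1574 lower. No variant was called under that scaling.

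**Figure D3:**
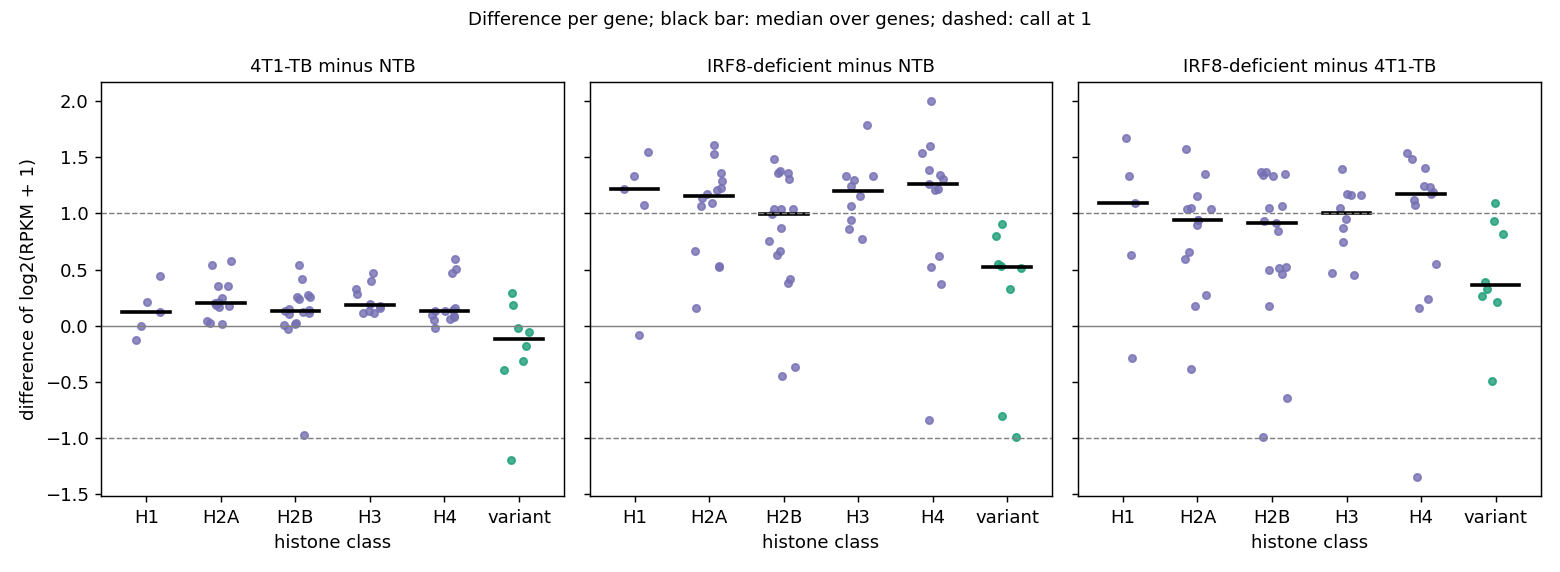
Difference of log2(RPKM + 1) per gene in the 3 comparisons, by histone class, for libraries scaled as deposited; black bars are medians over genes and dashed lines mark the call at 1. Points of the 5 replication-dependent classes centre near 0.15 in the first panel, where scaling sets their sign, and near 1.15 in the second, with Hist4h4 far below its class.

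The linker histone H1, which sits where DNA enters and leaves the nucleosome, had 5 genes compared and 4 called higher in IRF8-deficient against NTB, with a median of 1.22. Hist1h1c, a gene described as also making polyadenylated mRNA, stood at 774, 710 and 2263 RPKM in NTB, 4T1-TB and IRF8-deficient. Hist1h1d stood at 766, 835 and 1782 RPKM, and Hist1h1e at 721, 721 and 1816. In each of the 3 the IRF8-deficient library lay apart from the other two. Hist1h1a, a linker histone of dividing cells, stood at 480, 554 and 453 RPKM and was the H1 gene with no call in IRF8-deficient, with a difference from NTB of -0.08. The ratio of Hist1h1a to Hist1h1c was 0.62, 0.78 and 0.20 in NTB, 4T1-TB and IRF8-deficient. The testis linker gene Hist1h1t had 6, 0 and 2 reads and was not compared.

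Of the core histones that form the H2A-H2B dimer, 14 H2A and 17 H2B genes were compared. Against NTB 10 H2A genes were called higher in IRF8-deficient, with a median of 1.16, and 8 H2B genes, with a median of 0.99. Hist1h2ai, the highest H2A gene, stood at 1091, 1236 and 2559 RPKM in NTB, 4T1-TB and IRF8-deficient. Hist1h2an stood at 519, 596 and 1143 RPKM and Hist1h2ak at 350, 397 and 1012. All 3 were called higher in IRF8-deficient than in NTB as deposited. Hist1h2bn, the highest histone gene, stood at 2043, 2071 and 5239 RPKM, a ratio of IRF8-deficient to NTB of 2.56 with a counting interval of 2.53 to 2.60. That interval does not cover scaling, and under summed reads the difference was 0.80, below the call. Hist1h2bl stood at 1518, 1658 and 3128 RPKM. Hist2h2bb was also among the highest, yet at 984, 1164 and 1312 RPKM it differed from NTB by only 0.41 in IRF8-deficient, and summed reads turned that sign. The largest H2A difference was that of Hist1h2af, at 31.4, 32.3 and 98.2 RPKM.

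Hist1h2bc, Hist3h2a, Hist2h2be and Hist3h2ba are described, like Hist1h1c, as also making polyadenylated mRNA, and none of these 4 was called between IRF8-deficient and NTB. Hist1h2bc stood at 101, 112 and 160 RPKM, with a difference of 0.66 between IRF8-deficient and NTB. In the annotation it was the 1 searched replication-dependent gene with neither the stem-loop letters nor AATAAA. Hist3h2a stood at 84.1, 123 and 93.7 RPKM and was highest in 4T1-TB. Hist2h2be, at 3.56, 1.32 and 4.94 RPKM, had the lowest difference of all members between 4T1-TB and NTB apart from H1fx, and was called higher in IRF8-deficient against 4T1-TB at 1.35. Hist3h2ba had 17, 17 and 4 reads in NTB, 4T1-TB and IRF8-deficient, too few to weigh. The testis H2B gene Hist1h2ba stood at 1.09, 1.04 and 3.28 RPKM from 21, 10 and 37 reads. On these few reads it was among the H2B genes called higher in IRF8-deficient against NTB. The testis H2A gene Hist1h2aa was at 0 throughout.

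Histones H3 and H4 form the tetramer at the centre of the nucleosome. Against NTB 7 of 10 H3 genes were called higher in IRF8-deficient, with a median of 1.199, and 9 of 13 H4 genes, with a median of 1.27. Hist1h3h stood at 632, 685 and 1323 RPKM in NTB, 4T1-TB and IRF8-deficient. Hist1h3i stood at 571, 644 and 1444 RPKM. Hist1h3g, next in level, stood at 371, 514 and 711 RPKM and was not called at a difference of 0.94. Hist1h3b, lower in level at 131, 173 and 455 RPKM, had the largest H3 difference, 1.79. Among H4 genes Hist1h4k stood at 1377, 1511 and 3417 RPKM. Hist1h4j stood at 1119, 1191 and 2595 and Hist1h4d at 750, 792 and 1804. In these 3 H4 genes, as in Hist1h2bn and Hist1h2bl but not Hist2h2bb, NTB and 4T1-TB were closer to each other than to IRF8-deficient, the highest.

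Among replication-dependent genes the highest and the lowest difference between IRF8-deficient and NTB were those of H4 genes outside the Hist1 cluster. Hist2h4, on chromosome 3, stood at 229.6, 347 and 922 RPKM in NTB, 4T1-TB and IRF8-deficient, 4.02 times NTB with a counting interval of 3.87 to 4.17. Its difference from NTB was 2.00 as deposited and 1.45 under summed reads. Hist4h4, the one replication-dependent member on chromosome 6 and the gene whose upstream window is printed above, stood at 519, 738 and 288 RPKM. Its IRF8-deficient to NTB ratio was 0.556, with a counting interval of 0.534 to 0.578, and its IRF8-deficient to 4T1-TB ratio 0.390. The IRF8-deficient to NTB difference was -0.85 as deposited and -1.40 under summed reads. Hist4h4 was highest in 4T1-TB and lowest in IRF8-deficient, an order that held under all 3 other scalings. In GENCODE M21 99.0% of the 50-base windows of Hist2h4 and 91.9% of those of Hist4h4 occurred in no other gene.

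By position the difference between IRF8-deficient and NTB was uneven. The Hist1 cluster on chromosome 13 had 35 of 49 genes called higher, with a median of 1.21. The Hist2 cluster on chromosome 3 had 3 of 6, with a median of 0.80. None of the 3 Hist3 genes on chromosome 11 was called, with a median of -0.37, and Hist4h4 had -0.85. The last 2 sets are small, and Hist3h2ba and the pseudogene Hist3h2bb-ps have few reads.

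Copies within the clusters are so alike that a read can match several of them, and the authors' rule for such reads was not given in the sources used here. The share of 50-base transcript windows found in no other gene's GENCODE transcripts had a median of 48.1% over the replication-dependent genes and 90.3% over the variants. Among the variants H2afz had the lowest share, 30.4%, and H3f3a the next, 69.7%. Shared reads can thus bear on the values and ratios of these variants too. In 13 replication-dependent genes the share was under 10%. The 7 genes at 0 in every library (Hist1h2aa, Hist1h2ap, Hist1h2bq, Hist1h2br, Hist2h2aa1, Hist2h2aa2 and Hist2h3c2) had shares from 0 to 76.2%, with 5 of them under 10%. A value of 0 in such a copy does not show that it is silent. Hist2h2bb and Hist2h3b, which have no window of their own, were nevertheless listed well above 0. Hist2h3b shared windows with 11 other members, but Hist2h2bb with 0 members and 2 genes outside the set. The 32 compared genes with at least 50% of windows unique had a median difference of 1.12 between IRF8-deficient and NTB with 19 called higher, and the 27 others a median of 1.21 with 19 called higher. The value of a single copy such as Hist1h2bn, with 13.6% of windows unique, is uncertain.

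The annotated transcript ends were set beside the levels. The 30 compared genes with a stem-loop and no AATAAA had a median difference of 1.21 between IRF8-deficient and NTB, with 20 called higher. The 9 with both had a median of 0.67, with 4 called higher, and ranged from -0.85 (Hist4h4) to 2.00 (Hist2h4). With 9 genes that spread as widely as this the groups overlap, and no order was drawn from the medians.

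The variants, which are mostly polyadenylated, did not move as 1 group. H3f3a and H3f3b encode the same H3.3 protein from different genes. H3f3a stood at 416, 367 and 783 RPKM in NTB, 4T1-TB and IRF8-deficient. H3f3b stood at 292, 280 and 367 RPKM. The ratio of the first to the second was 1.43, 1.31 and 2.13, so the pair was least balanced in IRF8-deficient. Replication-dependent H3 summed to 4.05, 5.13 and 5.67 times H3.3 in NTB, 4T1-TB and IRF8-deficient.

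The H2A.Z genes also differed from each other. H2afz stood at 456, 557 and 668 RPKM and H2afv at 31.7, 23.8 and 46.3, a ratio of 14.4, 23.4 and 14.4 in NTB, 4T1-TB and IRF8-deficient. Replication-dependent H2A summed to 5.38, 5.26 and 8.29 times the pair. Between IRF8-deficient and NTB H2afz, H2afv and H3f3b had differences of 0.55, 0.53 and 0.33 as deposited, and all 3 were below 0 under summed reads. H2afx stood at 101, 100 and 177 RPKM, a difference of 0.80, which was 0.25 under summed reads. It is the variant with the stem-loop letters, and its difference was second to the 0.91 of H3f3a.

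H2afy, which encodes macroH2A1, was the abundant variant that ran the other way. It stood at 331, 267 and 189 RPKM in NTB, 4T1-TB and IRF8-deficient, a difference of -0.80 between IRF8-deficient and NTB that was not called as deposited and was -1.36, past the call, under summed reads. Its paralog H2afy2 was near the floor at 0.62, 0.38 and 0.88 RPKM and was not compared. The replacement linker histone H1f0, known from cells that leave the cycle, stood at 9.70, 11.1 and 14.2 RPKM. H1fx, described above, was highest in NTB.

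**Figure D4:**
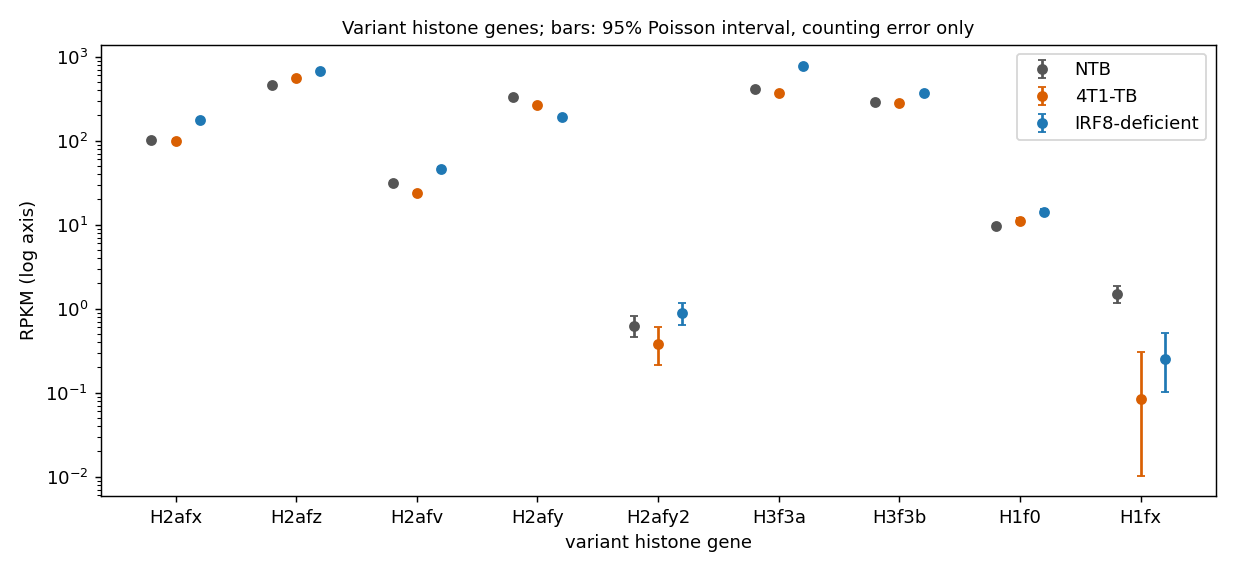
RPKM on a log axis of the 9 variant genes in the 3 libraries; bars are 95% Poisson intervals for counting error only and are narrower than the points where reads are many. H2afy descends from 331 in NTB to 189 in IRF8-deficient, H3f3a is highest in IRF8-deficient at 783, and H1fx and H2afy2 rest on few reads.

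Genes that serve histones were read beside them. Of 20 genes for the 3′ processing and decay of histone mRNA none was called in either comparison with NTB. Of all genes 1.67% were called higher and 1.35% lower in 4T1-TB, and 8.78% and 5.73% in IRF8-deficient. The list's median was 0.05 in 4T1-TB, which turned to -0.11 under summed reads. In IRF8-deficient it was -0.03 and ranged from 0.02 under median ratio scaling to -0.57 under summed reads. Slbp, the stem-loop binding protein, stood at 62.6, 69.7 and 86.2 RPKM in NTB, 4T1-TB and IRF8-deficient. Npat, the coactivator of histone gene transcription, stood at 12.6, 11.5 and 10.9, and Casp8ap2, the FLASH protein of the histone locus body, at 21.6, 22.8 and 20.02. Lsm10 and Lsm11, parts of the U7 particle that cuts histone transcripts, stood at 7.14, 6.56 and 8.35 and at 3.75, 3.18 and 3.79 RPKM. Zcchc6, a uridylyltransferase, was called higher in IRF8-deficient against 4T1-TB alone, at 22.8, 21.3 and 45.6 RPKM. Of 25 chaperone and deposition genes 1 was called higher in IRF8-deficient against NTB, Asf1b, the H3-H4 chaperone of dividing cells, at 35.3, 47.1 and 82.5 RPKM. Ipo4, an importin that carries H3 and H4, was called lower, at 6.63, 6.04 and 2.22 RPKM. Over all genes 8.78% were called higher and 5.73% lower in that comparison. The list's median was -0.25 as deposited, -0.43 without the 20 highest genes and -0.79 under summed reads. Cenpa, the centromeric H3 variant, stood at 35.6, 39.9 and 66.1 RPKM, and H2afj at 21.5, 18.2 and 24.3, and the other 6 listed variants were at 0.

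Genes of S phase did not share the histone pattern. None of 28 was called in any of the 3 comparisons, beside 8.78% of all genes called higher and 5.73% lower in IRF8-deficient against NTB. The median against NTB was -0.17 in IRF8-deficient, and it was 0.08 in 4T1-TB, which turned to -0.04 without the 20 highest genes and -0.07 under summed reads. Pcna, the sliding clamp of DNA polymerases, stood at 221, 247 and 226 RPKM, and Mcm6, of the replicative helicase, at 165, 145 and 129. Rrm2, which makes deoxynucleotides, stood at 105, 174 and 156 RPKM. Of 20 mitosis genes 3 were called higher in IRF8-deficient against NTB, Cenpf, Nusap1 and Prc1, or 15% beside 8.78% of all genes. All 20 had a difference above 0 as deposited, 13 under summed reads. Their median was 0.64 as deposited and 0.10 under summed reads, where it lay 0.61 above that of all genes. Mki67, the proliferation marker, stood at 190, 186 and 368 RPKM and Top2a at 194, 174 and 323.

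Other RNAs without a poly(A) tail were set beside the histone mRNAs. Of 17 listed 10 were in the tables and 8 were compared. Beside 1.67%, 8.78% and 8.83% of all genes called higher in the 3 comparisons, 1 of the 8, Rn45s, was called, higher in each. It stood at 2903, 11417 and 32498 RPKM. Without a tail too, Rmrp stood at 6613, 6079 and 7487 RPKM and Rpph1 at 10186, 10425 and 18696, the RNA parts of the RNases MRP and P. Scarna13 stood at 330, 231 and 272. The list's median against NTB was 0.29 in 4T1-TB. In IRF8-deficient it was 0.13, which turned to -0.41 under summed reads. Against NTB the difference in IRF8-deficient was 3.48 for Rn45s and 0.88 for Rpph1, and between -0.28 and 0.18 for the other 6, and whether the share of tail-less RNA captured differed between libraries was not tested.

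**Figure D5:**
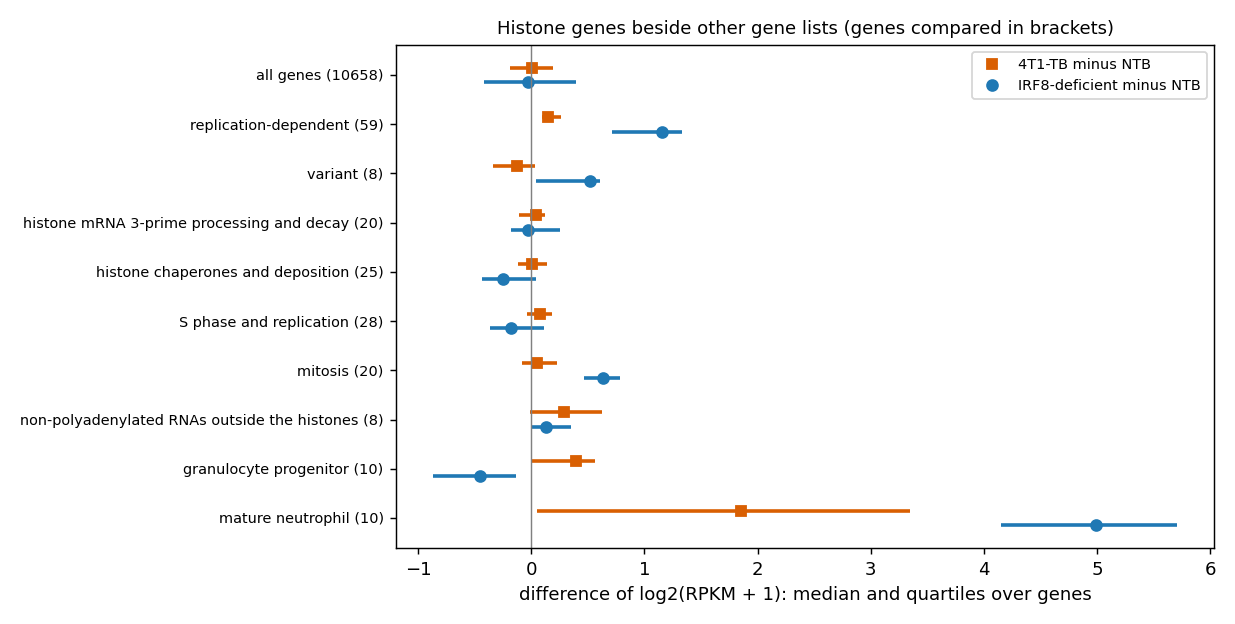
Median and quartiles over genes of the difference of log2(RPKM + 1) for all genes, both histone sets and 7 other lists, as 4T1-TB minus NTB and IRF8-deficient minus NTB, scaled as deposited. For IRF8-deficient the replication-dependent median of 1.15 lies above that of mitosis genes at 0.64 and S phase genes at -0.17, an order kept under summed reads at 0.63, 0.10 and -0.72, and that of mature neutrophil markers is higher than all.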

How the data were processed

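RNA was measured in 3 libraries, 1 per group, and groups follow the mouse model in the labels. Extraction of total RNA used TRIzol and library preparation the standard Illumina protocol, per the labels' protocols. The deposited values are RPKM made by the authors for 24421 symbols per library. The build mm10 and the tools edgeR 3.12.1, HTSeq 0.6.1, Picard 1.97, TopHat2 2.0.13, cutadapt 1.2.1 and CASAVA 1.8.2 stand in the submitters' processing notes, without roles. Annotation, strandedness and the treatment of reads with several matches were not given in the sources used here, and such treatment could shift values between histone copies.

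Whole reads were recovered for all 15158 genes above 0 from the whole-number ratios between libraries. Implied lengths were whole within 0.001 for 87.1% of 2576 genes with few reads, and 82.3% of 14588 genes lay within 0.8 to 1.25 of a reference length. In no library did 2 divide over 49.7% of reads or 3 over 33.8%, as a hidden common factor would require. Where few reads carry a gene, a common factor of its reads can be missed. Reads gave depth, shares and intervals (Clopper-Pearson for ratios, Poisson for levels, 95%), which cover counting error only.

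Differences are of log2(RPKM + 1), called at 1 or more, over the 10658 genes that reached 1 RPKM in any library. No test was possible with 1 library per group. Members, lists and rules were chosen with earlier results of these data known. Named are all variants, the 3 highest genes per class, the 5 largest differences each way, testis and also-polyadenylated genes, called or highest genes of other lists (up to 5) and 5 processing genes. Hist2h3b, Hist1h4b, Hist1h4h, the genes at 0 and the carriers of printed stem-loops were singled out after their values were seen. Transcripts and lengths came from GENCODE M21, upstream windows from RefSeq GRCm38.p6, matched for 69 of 77 members. The steps were tested on simulated data. Calculations used matplotlib 3.10.9, pandas 2.3.3, scipy 1.17.1 and numpy 2.4.6 under Python 3.11.15.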

Additional observations from a re-analysis of the deposited data

How the results depend on the processing

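The histone medians that changed sign under an alternative were that of the replication-dependent genes in 4T1-TB against NTB and that of the variants in IRF8-deficient against NTB, both under summed recovered reads. Values follow in the order 4T1-TB minus NTB, IRF8-deficient minus NTB, IRF8-deficient minus 4T1-TB where 3 are given. Under summed reads the replication-dependent medians were -0.0026, 0.63 and 0.65 with 1, 5 and 8 genes called, the variant medians -0.28, -0.0054 and 0.067, with 2 variants called against NTB and 0 against 4T1-TB in IRF8-deficient, and 2441 of all genes were called in IRF8-deficient against NTB. Without the 20 highest genes the replication-dependent medians were 0.036, 0.97 and 0.97, the variant medians -0.24, 0.34 and 0.29, and 1 replication-dependent gene was called in 4T1-TB and 1 variant in IRF8-deficient against NTB. Median ratio scaling gave a variant median of 0.57 in IRF8-deficient against NTB.

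Over all genes 322, 1547 and 1695 were called. A pseudocount of 0.1 gave 636 in the first comparison, 1 replication-dependent gene called there, 1 variant called in the second and a variant median of 0.61 in IRF8-deficient against 4T1-TB. A pseudocount of 5 gave 86, 675 and 786 genes, no variant (0) called in the first, a variant median of 0.43 in the second and a replication-dependent median of 0.92 in IRF8-deficient against 4T1-TB. A call at 4-fold left 52, 244 and 228 of all genes, 1 replication-dependent gene in the second comparison and 0 in the last, and 0 variants in the first and last. An RPKM of at least 5 left 189 of all genes and 0 variants called in the first, with a variant median of -0.061. No filter gave a variant median of -0.18 in the first and replication-dependent medians of 1.06 and 0.92 in the others.

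In alternatives chosen after seeing the data, members with at least 50% of windows unique gave 19 and 17 replication-dependent genes called in IRF8-deficient, because fewer genes enter, and members with at least 1000 reads in NTB a median of 1.21 against NTB. The ratio of sums was 9.93, 11.5 and 15.9 in NTB, 4T1-TB and IRF8-deficient without the 3 highest genes, and 12.4, 14.1 and 20.01 without the 5 genes described as also polyadenylated. For the other settings the cause was not tested. No replicate could be left out with 1 library per group, and no paired analysis was possible because each group has 1 library.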
